A study of Mus musculus with 24 samples.

Results

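Fear conditioning was compared with handling alone in the hippocampus of 3-month-old C57Bl/6 mice, the youngest age of the series. The comparison rests on 8 of the 24 Agilent 1-colour arrays, chosen by their titles: 4 from fear-conditioned mice (young fear) and 4 from controls (young control), with 1 mouse on each array. Conditioned mice spent 3 min in a new chamber and then received a foot shock of 0.7 mA for 2 s, and hippocampi were taken 1 h later. Controls were handled in the same way but had no training, and one label calls them naive. From every mouse 600 ng of total RNA was labelled with Cy3, and the labels state that only RNA of high integrity was used. The other 16 arrays came from controls and fear-conditioned mice aged 16 months and from more 3-month-old mice. Those younger mice were given the chamber without shock or the shock before the chamber. Unless named below, the 16 arrays entered the main results only through the estimate of the spread, the filter on probes and the choice of brightest probe. The series asks how the response of genes to training differs with age, and the comparison here is its 3-month side. Values are the log2 of each spot's signal minus the 75th percentile of its array, a change is the young fear mean minus the young control mean on that log2 scale, and a gene is said to have risen or fallen when its adjusted p was under 0.05.

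Contextual fear conditioning pairs a place with a shock, and the hippocampus is needed to form the memory of the place. Activity in its neurons switches on immediate early genes within minutes, and their products, many of them transcription factors, act on later genes of synapses, signalling and metabolism. The hippocampus borders the lateral ventricle, with its ependymal lining and choroid plexus, and lies over the thalamus, so a dissected piece can hold RNA of those tissues too. Whole tissue was measured, so fewer cells of a type and less RNA per cell cannot be told apart.

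The 4 young fear arrays stood apart from the 12 other arrays on the same 4 slides. On the first principal component of the 16 control and fear arrays, which held 42.9% of the variance, young fear lay between 60.8 and 99.2 and the 12 other arrays between -86.4 and 10.4. Young fear arrays correlated at 0.990 to 0.995 with each other and at 0.962 to 0.981 with young control. Of the genes that passed the threshold, 94.1% had an old control mean nearer to young control than to young fear, and 91.2% had an old fear mean nearer to young control. The raw signal moved with the group as well: the 75th percentile of signal was 1543 to 2137 on the young fear arrays and 892 to 1361 on the young control arrays, while the share of spots well above background overlapped, at 89.4 to 93.8% and 89.0 to 91.7%. The part of signal strength in the results was not tested. Each of 4 slides held 1 array of each group, and for many genes the arrays of slides 1 and 2 lay together, apart from those of slides 3 and 4: the gap between these pairs exceeded both gaps within them for 34.5% of genes in young fear and 19% in young control, against 2.31 to 8.42% for other pairings. The pairs were not the closest arrays by every measure. The SD over genes of the difference between arrays was 0.361 for fear arrays 2 and 3 and 0.373 for 1 and 2, and 0.468 for control arrays 1 and 4 and 0.487 for 3 and 4. Treating the 4 arrays of a group as independent may therefore understate the error, and counts with each pair averaged to 1 value are given beside the main ones. The number of arrays limits the precision.

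Of 26083 genes tested, 43.3% passed the threshold: 3422 (13.1%) were higher and 7864 (30.1%) lower after training. The change over all genes had a median of -0.34, so a fall was the commoner result, and the median moved to -0.15 under quantile normalization, -0.20 under median scaling and -0.53 with normexp background correction. Quantile normalization called 40.6% of genes, 17.7% higher and 22.9% lower. With quantile and median scaling 43.6% and 44.6% of the genes that passed were rises, against 30.3% in the main fit. The arrays of the groups did not overlap for 41.4% of genes, higher in 12.4% and lower in 29%. By the same test 0.142% of genes differed between old fear and old control, 0.728% between old and young control and 37.9% between old and young fear. Old control array 2 lay apart from its group, with an SD over genes of the difference of 0.864 to 0.954. Among the other old control arrays it was 0.335 to 0.478. The part of that array in these shares was not tested. With array pairs averaged 6448 genes passed (24.7%), 6.06% higher and 18.7% lower, and with normexp background correction 5331 (20.4%), 5.42% higher and 15% lower. The counts of each gene group below are read beside these shares.

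The largest falls were in genes of the choroid plexus, the ventricular tissue that secretes cerebrospinal fluid. Of 27 choroid plexus markers tested, 26 fell and 0 rose, with a median change of -2.72, and 22 still fell with array pairs averaged. Of the 10 largest falls with separate groups in which both probes of a gene agreed, 5 were on this list. The list was drawn up with earlier results of these data known, so this count is not independent of them. Steap1, of a family of metalloreductases, measured 1.64, 1.96, 0.92 and 0.93 on the control arrays and -4.34, -3.81, -2.82 and -2.83 on the fear arrays of slides 1 to 4. No fear array came near a control array, and the arrays of slides 1 and 2 lay farther apart than those of slides 3 and 4. The change was -4.81 ± 0.33 (SE, n = 4 arrays in each group, adjusted p = 2.53e-09), a 28.1-fold lower signal. Its second probe, 3998 bases away on chromosome 5 (mm9), gave -4.47 ± 0.30. Clic6, an intracellular chloride channel gene, measured 3.82, 3.95, 3.39 and 3.38 in controls and -1.24, -1.14, 0.26 and 0.13 after training, a change of -4.13 ± 0.32 that its second probe gave as -2.70 ± 0.30. For Folr1, the folate receptor gene, the groups lay at 2.05 to 2.87 and -1.69 to -0.72 and the probes gave -3.66 ± 0.26 and -1.31 ± 0.20. Col8a1, a collagen gene, had fear arrays within 0.05 of each other, at -1.58, -1.56, -1.57 and -1.53, against 1.16 to 1.56 in controls. Prlr, the prolactin receptor gene, changed by -2.72 ± 0.32, and the secreted protein gene Wfdc2, measured by 1 probe, by -4.16 ± 0.26. Ttr, which encodes the thyroid hormone carrier transthyretin, was well above background on all 8 arrays and changed by -4.83 ± 0.46. The mean level of the list was 0.52 to 0.96 on the young control arrays and -2.41 to -1.59 on the young fear arrays, and 0.36 to 1.15 on the arrays of both old groups.

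Ependymal cells, which carry motile cilia and line the ventricle, showed a similar direction. Of 24 ependymal and ciliated cell markers 15 fell and 0 rose (median change -0.81, 11 falls with array pairs averaged). Cfap126, a cilium gene, lay at 1.71, 1.78, 1.76 and 1.45 in controls and at -0.92, -0.86, -0.58 and -0.56 after training, with no overlap (change -2.40 ± 0.16). Fam183b, another gene of ciliated cells, changed by -1.65 ± 0.13. The mean level of the list was -1.42 to -1.08 in young control and -2.29 to -1.97 in young fear. Blood cell markers also fell in 9 of 15 cases and rose in 0, among them the alpha globin genes Hba-a1 and Hba-a2, each at -1.25 ± 0.20, whose near-identical sequences the probes may not tell apart. How far the tissue content of the dissected pieces enters other results was not tested.

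Thalamus markers went the other way. Of 26 tested, 14 rose and 2 fell, with a median change of 0.61, and 8 rose and 1 fell with array pairs averaged. The mean level of the list was -1.6 to -1.21 on the control arrays and -0.82 to -0.61 on the fear arrays. At 16 months it was -1.56 to -1.01 in controls and -0.79 to -0.27 after training, so the list was higher in the trained group at both ages. Prkcd, the gene of protein kinase C delta and a marker of thalamic relay neurons, measured -0.38, -0.47, 0.11 and 0.11 in controls and 1.74, 1.80, 1.98 and 2.20 after training. The groups were separate, as its place among the 10 largest rises required (change 2.09 ± 0.14, adjusted p = 2.53e-09). A second probe 5348 bases away gave 1.87 ± 0.16. Prkcd also changed between the old groups, by 0.86 (adjusted p = 0.012). Rab37, a small GTPase gene, rose by 1.67 ± 0.15, but its second probe gave 0.61 ± 0.42 and did not pass (adjusted p = 0.238). Rora, the nuclear receptor gene ROR alpha, rose by 1.07 ± 0.18. Adamts19, a secreted metalloprotease gene, lay at -6.07, -6.62, -5.53 and -5.80 in controls and -3.33, -3.33, -3.59 and -3.59 after training. Its change of 2.55 ± 0.27 was the largest of the rises chosen by the rule but comes from dim signals. Its second probe was above background on 4 of 8 arrays, so its direction gives no support to the first. With normexp background correction the change was 0.47 and did not pass (adjusted p = 0.53). Adamts19 rose between the old groups too, by 2.31 (adjusted p = 0.0003).

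The other large rises with agreeing probes belonged to genes of several roles. Dlg4 encodes PSD-95, the main scaffold of excitatory synapses, and measured -1.67, -1.69, -0.41 and -1.0 in controls against 1.13, 1.06, 1.10 and 1.09 after training. The fear arrays were tightly grouped and the control arrays of slides 1 and 2 were lowest. Its change was 2.29 ± 0.23 (4.89-fold, adjusted p = 1.5e-07; probe on chromosome 11, 69858304 to 69858363), and the second probe, 4962 bases away, gave 1.11 ± 0.13. Clip2, which links microtubule ends to membranes, lay at -1.01 to -0.55 and at 1.20 to 1.73, with changes of 2.11 ± 0.16 and 0.81 ± 0.17 at its probes. Zfp617, a zinc finger gene, had the smallest adjusted p of those named here, 1.77e-12, with controls at -1.34, -1.36, -1.31 and -1.34 and fear arrays at 0.63, 0.78, 0.47 and 0.56. Its probes gave 1.95 ± 0.08 and 1.44 ± 0.12. Ap1ar, an adaptor of vesicle traffic, rose by 1.78 ± 0.14 and Etnk1, an ethanolamine kinase gene of phospholipid synthesis, by 1.70 ± 0.12. Btbd8 rose by 1.76 ± 0.13 and the imprinted zinc finger gene Peg3 by 1.69 ± 0.25. U2af2, the splicing factor that binds the polypyrimidine tract, rose by 1.72 ± 0.23, a call that ended within slides 1 and 2 alone (adjusted p = 0.054). All of these genes separated the groups, which their choice required. In all, 482 rises and 659 falls had a symbol, separate groups, agreeing non-overlapping probes and, at the brightest probe, signal above background on all 8 arrays.

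**Figure D1:**
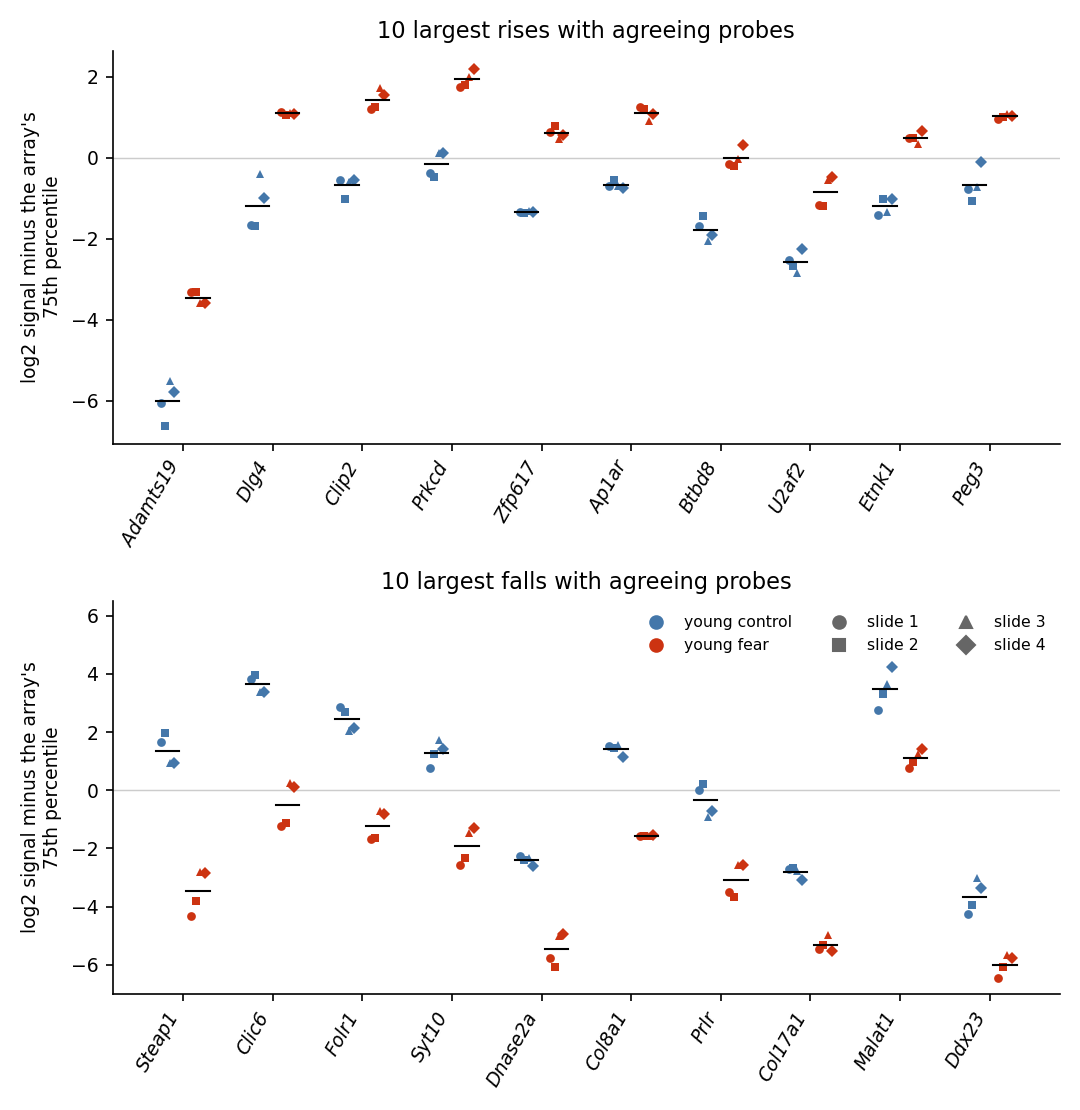
Log2 signal minus the array's 75th percentile (y axis) for the 10 largest rises and 10 largest falls whose probes agreed, with 1 point for each array, a symbol for each slide, and a bar at each mean (n = 4). The groups do not overlap for any of these genes, which the choice of genes requires, and for Steap1 the fear arrays of slides 1 and 2, at -4.34 and -3.81, lie below those of slides 3 and 4, at -2.82 and -2.83.

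Large falls outside the choroid plexus list included a nuclear RNA and a splicing helicase. Malat1, an abundant long non-coding RNA of the cell nucleus, measured 2.77, 3.32, 3.65 and 4.24 in controls and 0.76, 0.95, 1.26 and 1.43 after training. The highest fear array was below the lowest control array, as the choice of these falls required (change -2.39 ± 0.27, adjusted p = 6.6e-07, chromosome 19, 5802193 to 5802252). A probe 1667 bases away gave -1.72 ± 0.29. The old groups lay with young control, at 3.27 in old control and 4.15 in old fear. Ddx23, a helicase of the U5 particle of the spliceosome, fell at both probes, by -2.34 ± 0.30 and -0.73 ± 0.23. Syt10, a calcium sensor of the synaptotagmin family, lay at 0.76 to 1.71 and at -2.58 to -1.30 (change -3.20 ± 0.38), and its second probe gave -1.56 ± 0.28. Dnase2a, a lysosomal nuclease gene, changed by -3.05 ± 0.24 and -2.32 ± 0.14 at its probes, and Col17a1, a transmembrane collagen gene, by -2.51 ± 0.25 and -1.62 ± 0.29. Signals after training were dim for Dnase2a (-6.06 to -4.93), Col17a1 (-5.53 to -4.97) and Ddx23 (-6.47 to -5.66). The second probe of Col17a1 was above background on 7 of 8 arrays. With normexp background correction these 3 genes changed by -2.11, -1.87 and -1.52, and all still passed.

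Cytosolic ribosomal and respiratory genes had the highest shares of falls among the 26 function lists tested. Among the 78 proteins of the cytosolic ribosome 68 genes fell and 2 rose, with a median change of -0.85, and of 71 oxidative phosphorylation genes 62 fell and 0 rose, with a median of -0.87. All genes had 30.1% falls, and those in the brightest 25% by mean signal 45.1%. With array pairs averaged 55 and 53 fell, with quantile normalization 50 and 49. Rps13, a protein of the small ribosomal subunit, measured 6.09, 6.20, 6.03 and 5.90 in controls and 4.55, 4.5, 4.46 and 4.45 after training, and its probes gave -1.56 ± 0.09 and -0.83 ± 0.19. Rpl34, of the large subunit, fell by 1.27 ± 0.11 and at the second probe by 1.32 ± 0.09, and Rpl36a fell by 1.15 ± 0.10. Probes for ribosomal proteins may also bind transcripts of their many pseudogenes, so these values are uncertain to that extent. Ndufa1, a subunit of respiratory complex I, lay at 5.25, 5.71, 5.65 and 5.27 in controls and at 3.65, 3.59, 3.67 and 3.84 after training. Fear arrays were below all control arrays (change -1.78 ± 0.12, adjusted p = 2.24e-09), as at the second probe (-1.46 ± 0.10). Ndufc1, also of complex I, fell by 1.48 ± 0.12 and Uqcrh, of complex III, by 1.15 ± 0.11. Probes agreed downward for 16 of the 32 ribosomal genes with a second probe and for 10 of 19 respiratory genes, and opposed each other for 0 and 1. Over all genes with non-overlapping probes 9.77% fell at both and 8.58% had opposite probes.

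Mitochondrial ribosome and import genes followed: 57 of 85 fell and 6 rose, with a median change of -0.55. Mrps33, of the small mitochondrial subunit, fell by 1.19 ± 0.12 (1.09 ± 0.09 at its second probe), though in the authors' deposited values it did not pass (adjusted p = 0.052). Mrps18c fell by 1.08 ± 0.12 and Mrpl28 by 0.99 ± 0.11. In glycolysis and the citric acid cycle 17 of 42 enzymes fell and 6 rose. Ogdh, a subunit of the 2-oxoglutarate dehydrogenase complex, rose by 1.08 ± 0.13 at one probe and 0.87 at the other, while the malate dehydrogenase gene Mdh1 changed by -0.91 ± 0.13 and -0.59. With quantile normalization 13 of these enzymes rose and 6 fell, so their direction as a list depended on the scaling.

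**Figure D2:**
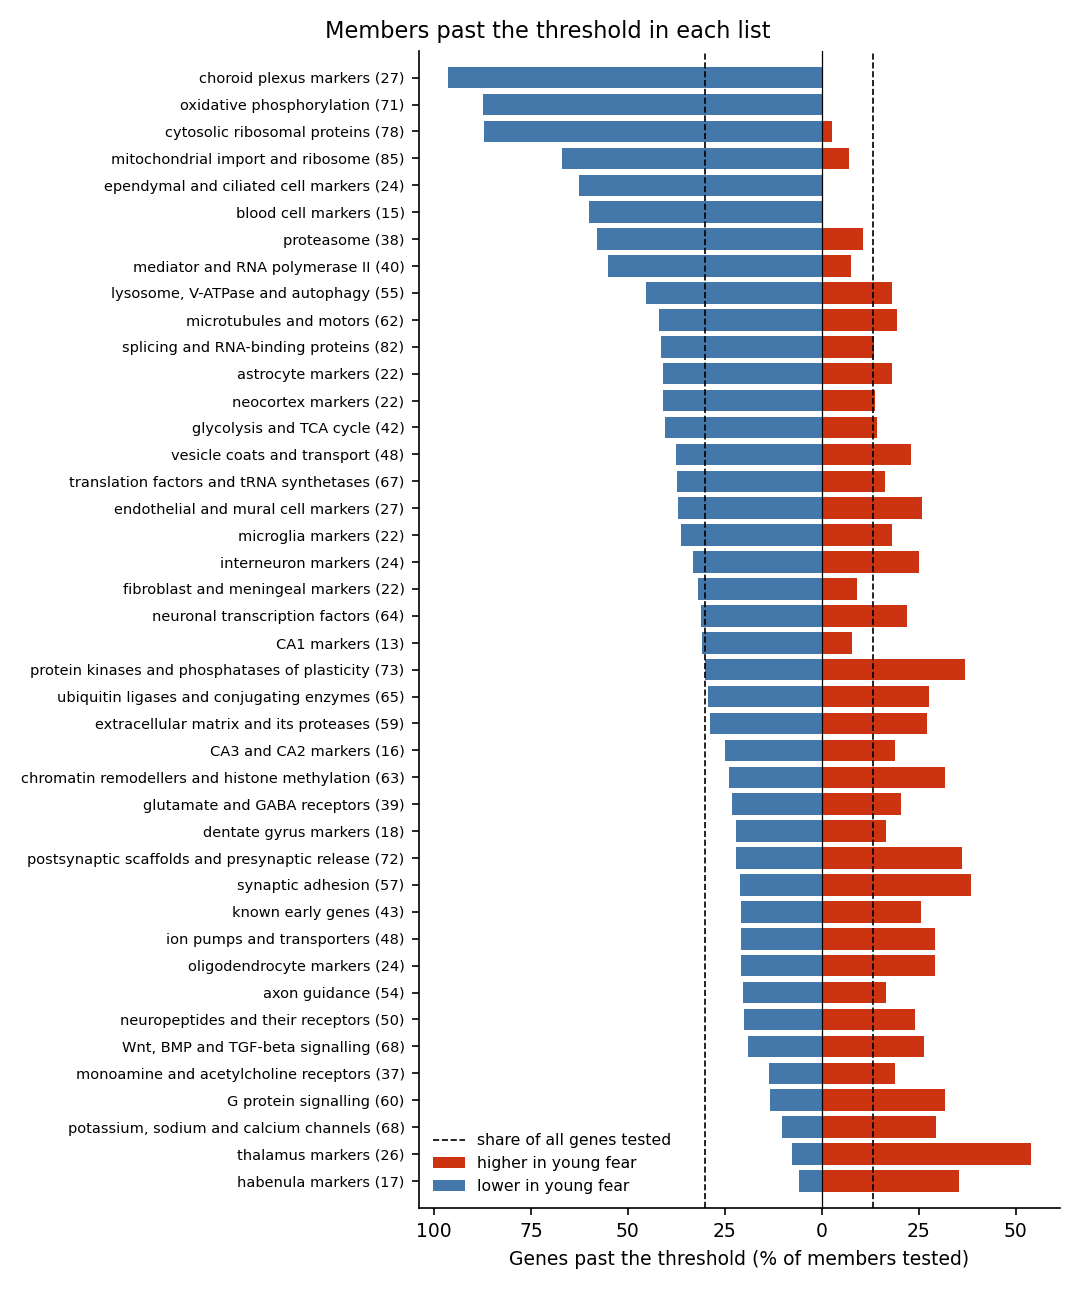
Share of each list's tested members (number in brackets) that passed the threshold upward (red, right) or downward (blue, left), with dashed lines at the shares over all genes tested, 13.1% and 30.1%. Choroid plexus markers, oxidative phosphorylation and cytosolic ribosomal proteins have the longest bars to the left, with 26 of 27, 62 of 71 and 68 of 78 members, and thalamus markers the longest to the right, with 14 of 26.

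Falls outnumbered rises in the lists of RNA polymerase, general splicing and the proteasome, as they did over all genes (30.1% lower, 13.1% higher). Beside the median change of -0.34 over all genes, mediator and RNA polymerase II genes had -0.48. General splicing factors, the proteasome, and lysosomal and autophagy genes each had -0.37, near that of all genes, and translation factors had -0.13. Of 40 subunits of mediator and RNA polymerase II 22 fell and 3 rose (16 and 0 with array pairs averaged). Polr2i, a small polymerase subunit, measured 3.23, 3.27, 3.08 and 3.08 in controls and 2.04, 1.97, 1.74 and 1.83 after training (change -1.27 ± 0.11). Med27 changed by -0.74 ± 0.09 and by -0.61 at its second probe. Among general splicing factors 22 of 45 fell and 5 rose, and 16 and 8 with quantile normalization. The core particle gene Snrpd3 fell by 1.36 ± 0.15 and 0.88 at its probes and Hnrnpa3, a nuclear RNA-binding protein gene, by 1.24 ± 0.12 and 1.16, while Srsf4, a serine and arginine rich factor, rose by 0.84 ± 0.10 and 0.77. The proteasome had 22 falls and 4 rises in 38 genes, and 13 and 8 with quantile normalization. Psmb3, of the catalytic core, fell by 1.08 ± 0.13 and 0.84, and Psme2, of its activator, by 1.03 ± 0.09 and 0.71. Translation factors fell in 19 of 47 cases and rose in 7, and 12 fell and 12 rose with quantile normalization. Lysosomal and autophagy genes fell in 19 of 37 cases and rose in 4, and in 11 and 6 with quantile normalization.

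**Figure D3:**
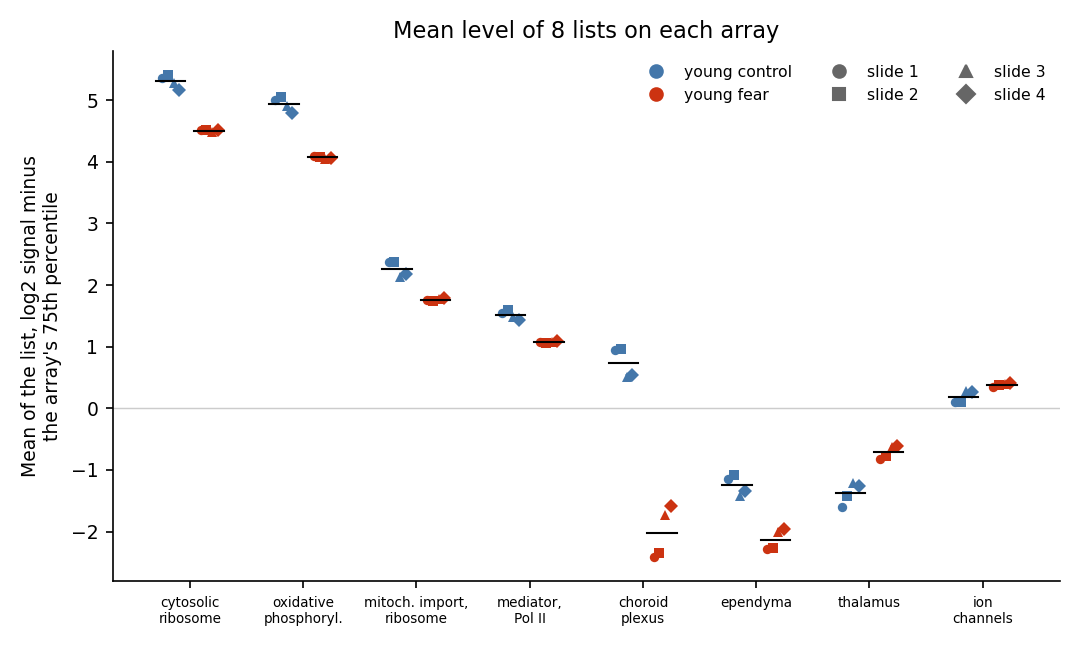
Mean log2 signal minus the array's 75th percentile (y axis) over the members of 8 lists, with 1 point for each array, a symbol for each slide and a bar at the mean of 4 arrays. The ribosomal list lies at 5.16 to 5.41 in controls and 4.48 to 4.52 after training, the choroid plexus list at 0.52 to 0.96 and -2.41 to -1.59, and the thalamus list is higher after training on every array.

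Subunits of single complexes did not always move together. The V-ATPase pumps protons into lysosomes and synaptic vesicles, and of 18 of its genes 6 rose and 6 fell. Atp6v1g2, a subunit of its cytosolic part, measured 1.47, 1.57, 1.82 and 1.72 in controls and 3.11, 3.04, 3.34 and 3.40 after training, a rise of 1.58 ± 0.11 with 1.38 ± 0.12 at the second probe. Atp6v1a, the catalytic subunit of the same part, rose by 1.19 ± 0.12 and 1.44 ± 0.11. Atp6v1f, also of that part, lay at 5.67 to 6.08 and at 4.60 to 4.84, with changes of -1.13 ± 0.10 and -0.90 ± 0.10. All 3 genes had separate groups and agreeing probes, in different directions. Vesicle coat and sorting genes fell in 18 and rose in 11 of 48 cases, and in 10 and 16 with quantile normalization. Cltc, the clathrin heavy chain gene, rose by 1.10 ± 0.11 and 1.42 ± 0.11, whereas the retromer gene Vps29 changed by -1.18 ± 0.10 and -0.79. Among ubiquitin ligases and conjugating enzymes 18 rose and 19 fell of 65, and 31 and 8 with quantile normalization. Rbx1, the RING subunit of cullin ligases, lay at 4.40, 4.72, 4.29 and 4.23 in controls and at 3.49, 3.30, 2.95 and 3.1 after training, and at its probes fell by 1.20 ± 0.12 and 0.92 ± 0.11.

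Synaptic and signalling lists had more rises than the 13.1% of all genes. That share varied with signal: in 4 equal groups of genes, from dimmest to brightest, it was 5.01, 11.9, 22.7 and 12.9%. The lists were not matched for signal. Of 57 synaptic adhesion genes 22 rose and 12 fell, with 13 and 6 when array pairs were averaged. Cntn1, a contactin of axons, rose by 0.74 ± 0.11 and 0.49 at its probes. Of 25 postsynaptic scaffold genes 8 rose and 7 fell. Ddn, which encodes the dendritic protein dendrin, lay at 1.42, 1.42, 1.52 and 1.59 in controls and at 3.86, 3.80, 3.18 and 3.58 after training, with no overlap (2.12 ± 0.15, 1 probe). Presynaptic release genes rose in 18 and fell in 9 of 47 cases, and in 7 and 2 with array pairs averaged. Over all genes with non-overlapping probes 7.13% rose at both and 8.58% had opposite probes. Of 30 presynaptic genes with a second probe 1 rose at both and 7 had opposite probes. Of 15 scaffold genes 1 rose at both and 3 had opposite probes, and of 33 synaptic adhesion genes 4 and 2. In the list of plasticity kinases and phosphatases 27 of 73 rose and 22 fell. Ptpn11, the tyrosine phosphatase SHP2, measured 4.95, 5.09, 4.71 and 4.73 in controls and 4.04, 3.99, 3.45 and 3.48 after training, with changes of -1.13 ± 0.12 and -2.70 ± 0.22 at probes 32185 bases apart. G protein signalling genes rose in 19 and fell in 8 of 60 cases. Pde4b, a phosphodiesterase that breaks down cyclic AMP, lay at -0.68, -0.36, 0.37 and -0.15 in controls and at 1.19, 1.16, 0.78 and 1.03 after training (1.24 ± 0.16, and 1.78 ± 0.19 at the second probe). Pde1a, a calcium-dependent phosphodiesterase, changed by -0.80 ± 0.13 and -1.24.

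Ion channels and transmitter receptors showed the same mixture. Of 68 potassium, sodium and calcium channel genes 20 rose and 7 fell, and 10 and 1 with array pairs averaged. Of 38 with a second probe 8 had opposite probes, beside 8.58% of all genes with non-overlapping probes. Kcnk2, a background potassium channel on the neocortex list, rose from between -2.53 and -2.10 to between -0.54 and -0.42 (1.88 ± 0.12, 1 probe). Among GABA receptor genes 3 rose and 3 fell of 15. Gabra3 rose by 0.86 ± 0.13 and 1.43 ± 0.21 and Gabra5, a subunit abundant in the hippocampus, by 0.62 ± 0.07 and 0.47 ± 0.18. Ion pumps and transporters rose in 14 and fell in 10 of 48 cases. Glutamate receptor genes rose in 5 and fell in 6 of 24 cases, near the shares of all genes. Of 37 monoamine and acetylcholine receptors 7 rose and 5 fell, Htr1a, a serotonin receptor gene, by 1.05 ± 0.17. Among neuropeptides and their receptors 12 of 50 rose and 10 fell. Scg2, a secretogranin of dense-core vesicles, measured 1.09, 0.88, 1.33 and 1.30 in controls and 2.13, 2.21, 2.39 and 2.14 after training (1.07 ± 0.11), and Crhr2, a receptor of the corticotropin-releasing hormone family, changed by -1.41 ± 0.15.

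Matrix, guidance and growth factor genes moved in both directions. Of 59 extracellular matrix genes and proteases 16 rose and 17 fell. Col4a2, a basement membrane collagen gene, lay at 0.00, -0.12, 0.49 and 0.41 in controls and at 1.15, 1.22, 1.33 and 1.08 after training, and both probes gave a rise of 1.00 (SE 0.15 and 0.19). Fn1, the fibronectin gene, rose by 0.80 ± 0.14 and 1.08 ± 0.34, although the mean of all its probes did not pass (adjusted p = 0.12). Axon guidance genes rose in 9 and fell in 11 of 54 cases, and in 15 and 8 with quantile normalization. Genes of Wnt, BMP and TGF-beta signalling rose in 18 and fell in 13 of 68. Gsk3b, a kinase of Wnt signalling, rose by 1.05 ± 0.19 and 0.65 ± 0.26, and Bmp7, a secreted growth factor gene, changed by -1.02 ± 0.20 and -0.78, a call lost with array pairs averaged (adjusted p = 0.06).

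Chromatin and transcription factor genes were likewise divided. Of 63 chromatin remodellers and histone methylation genes 20 rose and 15 fell. Atrx, a remodeller of heterochromatin, measured -1.10, -1.16, -1.32 and -1.43 in controls and -0.23, -0.25, -0.17 and -0.15 after training, with rises of 1.05 ± 0.14 and 1.71 ± 0.24 at its probes. Actl6b, a subunit of the neuronal BAF complex, rose by 0.78 ± 0.14 and 0.83. Chd8, a chromodomain helicase gene, changed by -1.24 ± 0.13 and -0.72 ± 0.18, from between 2.34 and 3.00 to between 1.24 and 1.80. Among 64 neuronal transcription factors 14 rose and 20 fell, and 20 and 15 with quantile normalization. Cux1, a homeobox gene of cortical neurons, rose by 0.63 ± 0.12 and 1.19 at its brightest probes, and the mean over all of its probes did not pass (adjusted p = 0.21).

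Markers of glia and vessels had no common direction. Oligodendrocyte markers rose in 7 and fell in 5 of 24 cases. Olig1, a transcription factor gene of that lineage, measured 2.27, 2.24, 2.20 and 2.12 in controls and 3.25, 3.13, 3.35 and 3.40 after training, with no overlap (1.08 ± 0.09, 1 probe). Astrocyte markers rose in 4 and fell in 9 of 22 cases. Gfap, which encodes the intermediate filament of astrocytes, rose by 1.33 ± 0.15 and 1.41 ± 0.15, whereas Glul, which encodes glutamine synthetase, changed by -1.67 ± 0.11 at its brightest probe and -0.19 ± 0.13 at the second. Microglia markers rose in 4 and fell in 8 of 22 cases, with Itgam up by 1.22 ± 0.16 and Aif1 at -1.03 ± 0.13, both with agreeing probes. Endothelial and mural markers rose in 7 and fell in 10 of 27. Quantile normalization gave 6 rises and 5 falls of astrocyte and 9 and 8 of endothelial markers. Of markers of tissue near the hippocampus, 6 of 17 for the habenula rose and 1 fell, 3 of 22 for the neocortex rose and 9 fell, and 2 of 22 for fibroblasts and meninges rose and 7 fell. Interneuron markers rose in 6 and fell in 8 of 24 cases. For the hippocampal fields, CA1 markers had a mean level of 1.07 to 1.25 in young control and 0.96 to 1.17 in young fear. CA3 and CA2 markers had 0.09 to 0.35 and 0.08 to 0.32, and dentate gyrus markers -0.25 to -0.17 and -0.31 to -0.06. These ranges overlap between the groups, but means over different probes cannot show that the fields were equally sampled. Of 13, 16 and 18 markers of these fields 1, 3 and 3 rose and 4, 4 and 4 fell. With quantile normalization 7 CA3 and CA2 markers rose and 3 fell.

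Early genes moved in both directions, and Arc, Nr4a1 and Npas4 had opposite signs on different slides. Of 43 measured, 11 rose and 9 fell, and 3 and 3 with array pairs averaged. Fos, the activity-induced transcription factor gene, measured -2.73, -2.82, -2.00 and -1.70 in controls and 0.77, 0.82, -0.52 and -0.66 after training. Every fear array was above every control array (change 2.41 ± 0.29), with the wider gap on slides 1 and 2. Arc, which acts at synapses, lay at 2.54, 2.5, 3.69 and 3.73 in controls and at 3.94, 3.97, 3.14 and 3.05 after training. Its change was 1.44 within slides 1 and 2 (adjusted p = 0.002) and -0.62 within slides 3 and 4 (adjusted p = 0.0063). Over all arrays it was 0.41 ± 0.26 (adjusted p = 0.195). The fits within slides hold 2 arrays of each group, which may not be independent, so their p-values may be too small. This split of the slides was added after seeing the data. Nr4a1, an orphan nuclear receptor gene, had the same pattern, at 1.06 and -0.59. Npas4 changed by 0.50 and -0.66 within these slides and Egr1 by 0.79 and 0.14. Over all arrays Egr1 did not pass (0.47 ± 0.19, adjusted p = 0.0546), and it did with quantile normalization (0.77, adjusted p = 0.0017), while Npas4 changed by -0.08 ± 0.24, with the sign turned under median scaling. Homer1, a postsynaptic scaffold with an activity-induced short form, rose by 0.95 ± 0.14 at one probe and 0.63 ± 0.16 at another 98053 bases away. Klf6, a zinc finger factor, measured 1.99, 2.00, 1.91 and 1.81 in controls and 0.94, 0.98, 0.84 and 0.65 after training (-1.08 ± 0.10, and -0.51 ± 0.18 at the second probe). Ptgs2, the inducible cyclooxygenase gene, differed between the groups by 0.0023 and 0.12 on slides 1 and 2 and by 0.93 and 0.34 on slides 3 and 4. It rose by 0.35 ± 0.13 (adjusted p = 0.0363), a call lost without fear array 3, without fear array 4, without control array 3 or without control array 4 (adjusted p = 0.059 to 0.17) and with array pairs averaged (adjusted p = 0.21), and also with quantile normalization, normexp correction and the deposited values.

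How far a gene's change holds at another probe could be asked for 8482 genes with more than 1 kept probe. Each probe is 60 bases long, and the brightest was set against the second brightest. Where the probes overlapped, in 374 genes, both passed in 158 and 3 of these disagreed in direction (1.90%), with a correlation of the changes of 0.81 across genes. Where they did not overlap, in 8108 genes, both passed in 2066: 578 (7.13%) rose at both, 792 (9.77%) fell at both and 696 (8.58%) moved in opposite directions, which is 33.7% of those with both past the threshold (95% Wilson interval 31.7 to 35.8%, over genes, which are not independent). The correlation across these genes was 0.28. It was 0.19 in old fear against old control and 0.23 in old against young control, where the changes were smaller (SD 0.34 and 0.27, against 0.59 here). Limiting the comparison to probes above background on all 8 arrays left the opposite share at 33.8%.

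Opposite directions were more frequent the farther apart the probes lay. The share was 11.4% for non-overlapping probes under 500 bases apart, 34.0% for 500 to 2000 bases, 37.3% for 2000 to 10000 bases and 45% beyond 10000 bases of genomic distance. It was 30.6% where both probes named the same transcript accession and 40.8% where they named different ones. A rise at the brightest probe was opposed in 25.9% and a fall in 38.4% of cases. Among changes of 1.5 or more at the brightest probe 25% were opposed, against 40.7% of those under 0.5. Between probes under 500 bases apart the one nearer the 3' end of the gene was the lower in 66.1% of 932 genes, with a median of -0.30 against -0.10. Beyond 10000 bases it was the lower in 40.7%. Beside the 8.58% of all genes with non-overlapping probes, opposite probes were found in 10 of 45 genes of postsynaptic scaffolds and presynaptic release, 9 of 42 kinases and phosphatases, 9 of 46 microtubule and motor genes and 8 of 38 channels with a second probe. They were found in 0 of 47 neuronal transcription factors, 0 of 32 cytosolic ribosomal genes and 0 of 22 glutamate and GABA receptors. Differences between lists were not tested.

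**Figure D4:**
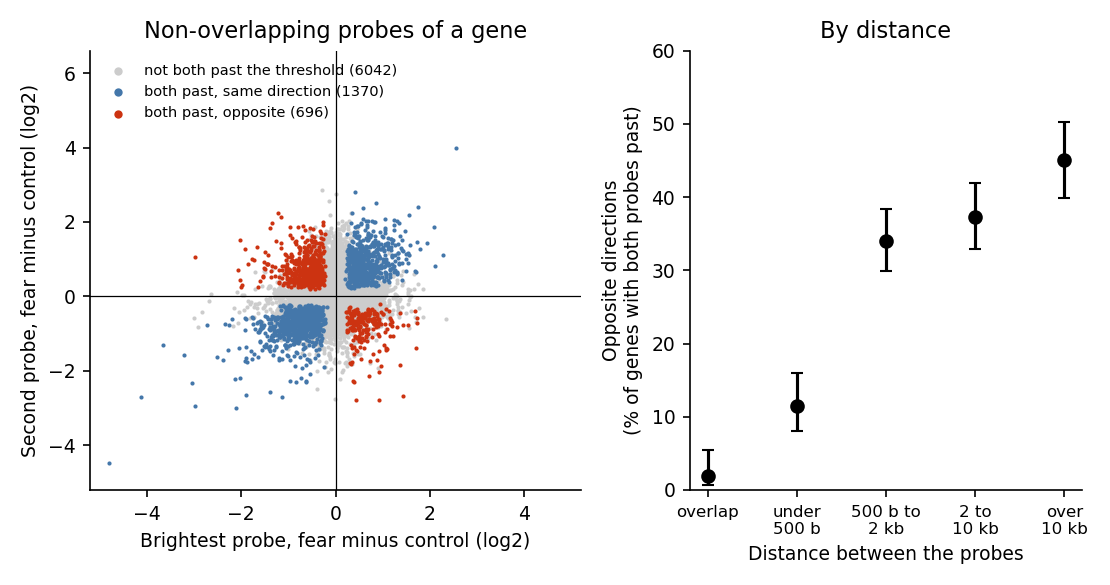
Left, change at the brightest probe (x axis, log2) against the second brightest (y axis, log2) for 8108 genes with non-overlapping probes, coloured by whether both passed the threshold and in which direction. Right, share of genes with both probes past the threshold that moved in opposite directions, with 95% Wilson intervals, rising from 1.90% for overlapping probes to 45% beyond 10000 bases.

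The 6 genes with the widest disagreement between well-measured probes show that either direction can be read from the same gene. Rph3a, the gene of the vesicle protein rabphilin, measured 1.20, 0.94, 1.6 and 1.78 in controls and -1.02, -1.0, -0.22 and -0.39 after training at its brightest probe (chromosome 5, 121391927 to 121391986, minus strand, mm9), a change of -2.04 ± 0.19. At the other probe, 915 bases away (121391012 to 121391071), it measured 0.12, -0.13, 0.53 and 0.40 and then 1.56, 1.54, 2.01 and 1.93, a change of 1.53 ± 0.14 (adjusted p = 3.22e-08). The groups were separate at both. Csnk1e, a casein kinase gene, had its brightest probe at 3.05, 2.91, 3.02 and 3.73 in controls and 2.01, 1.94, 2.11 and 2.06 after training (-1.15 ± 0.23), and the other, only 176 bases away, at -4.80, -4.52, -4.59 and -4.38 and then -2.41, -2.53, -2.39 and -2.42 (2.13 ± 0.13). The second probe of Csnk1e gave dim signals. At the brightest probe the fall of Csnk1e did not pass with normexp correction (adjusted p = 0.17), in the deposited values (adjusted p = 0.19) or within slides 1 and 2 (adjusted p = 0.19). The first 30 bases of each probe are given 5′ to 3′ because these are the molecules on which the opposite values were read, beside those of Prkcd, whose probes agreed.
Rph3a brightest probe: atttacaaagagatttgctctgaccttaag
Rph3a second probe: atcttcctcacatgagaggcaagtctggtt
Csnk1e brightest probe: ggaaatgaggagagcgaccacagaccagtg
Csnk1e second probe: caatggattttgtttctttgatttattttg
Prkcd brightest probe: tcctttgtgaatcccaagtttgagcaattc
Prkcd second probe: gccgcttcgaactctaccgggctacgtttt

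Ckap5, a microtubule polymerase gene, rose by 1.44 ± 0.18 at one probe and changed by -2.67 ± 0.25 at another 54465 bases away. Lsm12, an RNA-binding protein gene, gave -1.35 ± 0.18 and 1.99 ± 0.20 at probes 2524 bases apart. For Pakap the values were -2.98 ± 0.26 and 1.07 ± 0.11. Tuba1c, an alpha tubulin gene whose sequence is close to that of other alpha tubulins, gave 0.93 ± 0.14 and -2.79 ± 0.62, so its signal may in part be theirs. Fosl2, an early transcription factor gene chosen after its values were seen, rose by 0.72 ± 0.15 at its brightest probe and changed by -2.13 ± 0.46 at a probe 4536 bases away. The place of these probes in exons or untranslated regions was not determined here.

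**Figure D5:**
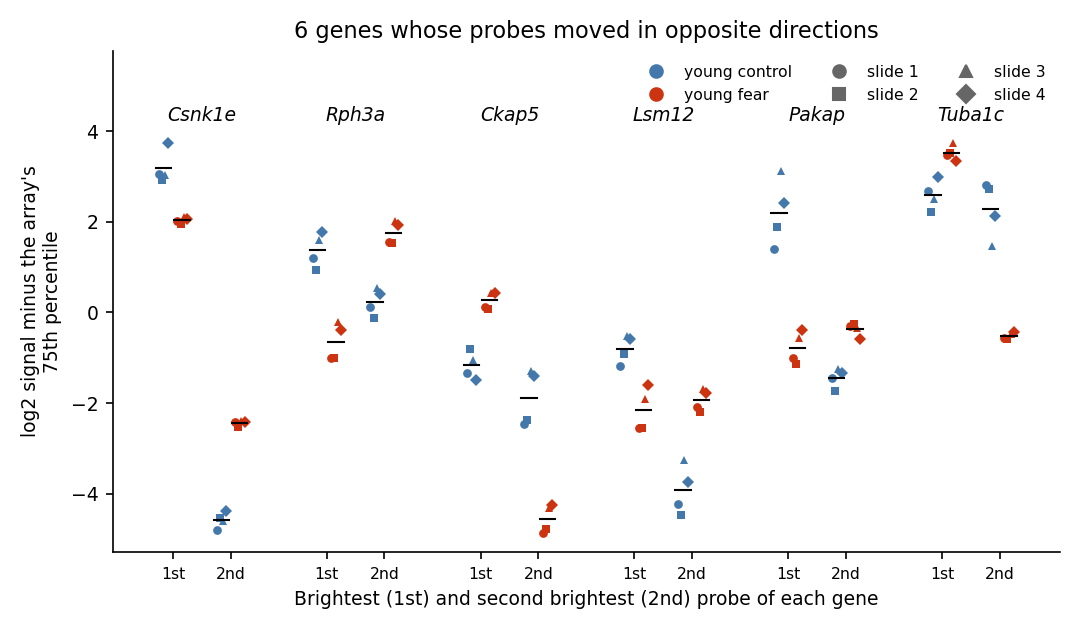
Log2 signal minus the array's 75th percentile (y axis) at the brightest and second brightest probe of 6 genes whose probes moved in opposite directions, with 1 point for each array, a symbol for each slide and a bar at the mean of 4 arrays. For Csnk1e the first probe falls from between 2.91 and 3.73 to between 1.94 and 2.11, and the second rises from between -4.80 and -4.38 to between -2.53 and -2.39.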

How the data were processed

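Per the labels' protocols, TRIzol RNA of each hippocampus was amplified with Cy3 by a linear amplification kit and hybridised to 1 array. Per the file headers, Agilent Feature Extraction 9.5.3.1 made the deposited scanner output, an intensity for every spot that is background-subtracted and spatially detrended, unscaled between arrays, with marks for outlier, saturated and dim spots. The authors also deposited a normalized table, read here as log2 from its range, whose columns share nearly 1 median. The submitters' processing notes also name limma.

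Processed intensities were converted to log2 relative to the 75th percentile of their array. Outlier spots became missing values, control spots were dropped, repeated spots were averaged, and a probe was kept if 4 or more of 24 arrays marked it as well above background. The probe with the highest mean over the 24 arrays, called the brightest, stood for a gene. Probes were named through RefSeq accessions or symbols: 33099 of 41174 matched. Positions are those of mm9, per the file headers. Group means of 24 arrays (18 residual degrees of freedom) were fitted in limma 3.58.1 (R 4.3.3) with lmFit and eBayes, two-sided, Benjamini-Hochberg adjusted, at 0.05. SE is that of the fit. On simulated data with 50 genes changed at each size, 28 rises and 33 falls of 1 and 6 and 8 of 0.5 were recovered, and 5 of 25883 unchanged genes were called. The simulation gave every array independent noise and changed few genes, with no array pairs and no shift over all genes. These figures therefore do not measure the errors of the real comparison.

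The comparison and its 42 gene lists were chosen with earlier results of these data known. Named genes are the 10 largest rises and 10 largest falls with separate groups and agreeing probes, up to 3 members per functional list and 2 per marker list by adjusted p, 6 genes with opposite probes, and Fos, Arc, Egr1, Npas4, Nr4a1 and Ttr. Some of them are not reported here. Alternatives were other scalings, normexp background correction (offset 50), filters, probe choice, the deposited values, slide and array-pair blocks, fewer arrays, and each array left out.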

Additional observations from a re-analysis of the deposited data

Results flagged for a closer look

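In 8 of the 262 groups of 4 arrays looked at, 1 array lay far from the other three, where chance alone flags about 1 in 20 such groups. The value given is that array's gap to its nearest neighbour as a share of the group's range. Among young control arrays it was 0.961 for Chrna5, 0.887 for Rab37, 0.885 for Clip2, 0.835 for Rgmb, 0.834 for Csnk1e and 0.834 for Egr1. Among young fear arrays it was 0.911 for Glul and 0.855 for Vps29.

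The change with training differed between the ages for 19 of the 20 genes with the largest rises and falls, by a limma contrast with adjusted p under 0.05. These genes were chosen for a large change at 3 months, which enters this contrast, so the count says little about age. The share of all genes with such a difference is not given here. The change at 16 months minus that at 3 months, on the log2 scale, was -2.76 for Dlg4, -2.18 for Clip2, -1.91 for Zfp617, -1.73 for Ap1ar, -1.56 for U2af2, -1.34 for Etnk1, -1.29 for Btbd8, -1.23 for Prkcd and -1.23 for Peg3. Among the falls it was 4.34 for Steap1, 3.75 for Clic6, 3.27 for Malat1, 3.12 for Folr1, 2.76 for Syt10, 2.74 for Prlr, 2.68 for Dnase2a, 2.5 for Ddx23, 2.42 for Col8a1 and 2.33 for Col17a1. For Adamts19 it was -0.24 (adjusted p = 0.704).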

How the results depend on the processing

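The count of genes past the threshold, 11286 (3422 higher, 7864 lower), became 5331 (1414, 3917) with normexp background correction, 6448 (1581, 4867) with array pairs averaged and 6312 (2058, 4254) within slides 1 and 2. Leaving out 1 array gave 9886 to 11567 genes, 3057 to 3266 higher and 6644 to 8389 lower. Rises were 30.3% of these genes, but 43.6% with quantile normalization, 44.6% with median scaling and 42.5% in the deposited values. Slide numbers were not taken to pair mice: arrays of the same number correlated at 0.52, 0.03, 0.26 and -0.00 in their deviations. With the slide as a replicate block 14236 genes passed as a fixed and 13144 as a random term, and 8550 with array pairs as a random block. The share of 2-probe genes past the threshold in 1 direction, 18%, was 16.5% with median scaling, 6.15% with normexp, 17.2% without the filter, 15.5% in the deposited values, 15.3% with 8 arrays only, 21.5% and 21.1% with the slide block (fixed, random), 12.6% with pairs as a block, 6.85% with pairs averaged, 19.5% with slides 1 and 2 against 3 and 4 as a term, 8.57% and 15.5% within slides 1 and 2 and within 3 and 4, and 15.1 to 17.1% leaving out 1 array. The opposite share, 31.4%, was 29.4% (quantile), 28.4% (median scaling), 20.4% (normexp), 29.3% (deposited), 28.3% (8 arrays), 29.0% (slide block), 29.3% (pairs as block), 18.4% (pairs averaged), 21.2% (slides 1 and 2) and 29.2 to 32.5% leaving out 1 array. Of 131 named genes 80 kept direction and call under all 27 settings and 13 turned sign in at least 1. With the mean of all probes the change was 0.54 for Man1a, -0.00025 for Maml2, -0.74 for Ckap5, -0.93 for Tuba1c, 0.32 for Lsm12 and 0.49 for Csnk1e. At the second probe it was 1.42 for Man1a, -0.75 for Maml2, -2.67 for Ckap5, 1.07 for Pakap, -2.79 for Tuba1c, 1.53 for Rph3a, 1.99 for Lsm12 and 2.13 for Csnk1e. Slc1a2 turned in the deposited values (0.11) and Nhlh2 with normexp (-0.16). Within slides 3 and 4 Arc was at -0.62 and Nr4a1 at -0.59. Npas4 turned with median scaling (0.066), in the deposited values (0.037), within slides 1 and 2 (0.50), and leaving out 1 array (-0.23 to 0.12, above 0 without fear array 4 or control array 3). The cause was not tested. Settings that split the slides were added after seeing the data. Dim probes and 4 arrays a group limit the precision.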
